A study of Mus musculus with 3 samples.

Results

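The regions described here are the NBS1 and input peak intervals that lie on the unplaced and unlocalised contigs of the mouse mm9 assembly. They were taken by sequence name: every interval of the 4 deposited lists whose sequence name contains "random", leaving out chrX_random and chrY_random. In mm9 a name such as chr8_random marks sequence assigned to a chromosome without a position, and chrUn_random gathers sequence that was assigned to no chromosome. The rule found 872 of 21785 intervals: 292 of 5201 for AH2 NBS1, 226 of 3192 for R2K.A NBS1, 347 of 11903 for AH2 input and 7 of 1489 for AH2 NBS1 after subtraction. These contigs are often described as repeat-rich. No mm9 sequence or repeat annotation was used here, so their repeat content was not measured, their bases are not printed and no gene names are given.

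The study profiled NBS1 by chromatin immunoprecipitation and sequencing on a SOLiD instrument. AH2 NBS1 is a library from AH2 cells, R2K.A NBS1 a library from R2K.Artm cells, and both used the same rabbit monoclonal antibody. AH2 input is sonicated DNA of AH2 cells, for which the labels give no antibody. Both lines are v-Abl-transformed mouse pre-B cells, and the labels give neither a genotype nor a treatment for any library, nor whether a line is a clone. A further list holds AH2 NBS1 intervals left after subtraction. R2K.A NBS1 is named as subtracted in its header, and input as well in its file title. Every group is a single library, so replicate spread could not be measured and groups were not tested against each other. The 95% intervals are Wilson intervals. They cover counting error only and treat intervals as independent, which neighbouring intervals are not. The read depth of the libraries is unknown, and the lists differ in length, so a larger number of intervals in 1 list than in another is not read as more signal. Numbers of intervals are given to show where the intervals of each list lie.

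NBS1 is part of the MRE11-RAD50-NBS1 complex, a sensor of DNA double-strand breaks that helps to recruit and activate the ATM kinase. In developing lymphocytes such breaks are made by the RAG1/2 recombinase at antigen receptor genes, and by its title the study is about RAG1/2 breaks outside the immunoglobulin loci. Unplaced contigs are the parts of an assembly whose position could not be resolved, commonly because similar sequence exists elsewhere. As general background, where an assembly holds fewer copies of a sequence than the genome does, reads of the missing copies align to the copies present, in immunoprecipitated and input DNA alike. An input library is sequenced to show such places.

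The contigs took a larger share of both NBS1 lists than of the input list. They held 5.61% of AH2 NBS1 intervals (95% interval 5.02 to 6.27%), 7.08% of R2K.A NBS1 intervals (6.24 to 8.02%) and 2.92% of AH2 input intervals (2.63 to 3.23%). After subtraction the share was 0.470% (0.228 to 0.967%), the lowest of the 4 lists. That value rests on the choice of contigs: with chrX_random and chrY_random it was 3.36%, since 43 intervals of that list lay on chrY_random. Among intervals with a deposited score of at least 100, the contigs held 168 of 1339 in AH2 NBS1, 136 of 904 in R2K.A NBS1 and 194 of 1476 in AH2 input. These shares were 12.5% (10.9 to 14.4%), 15.04% (12.9 to 17.5%) and 13.1% (11.5 to 14.96%). On chromosomes 1 to 19 and X 23.9% of AH2 NBS1, 25.6% of R2K.A NBS1 and 11.1% of input intervals reached 100. The score is the authors' own value for each interval, with a minimum of 50 in every list. Its meaning is not given in the file headers, and a score of 100 is not shown to stand for the same enrichment in libraries of unknown depth. Scores are therefore compared between intervals of 1 list, and where scores of several lists appear together each describes the interval in its own list.

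Contig intervals scored higher than the rest of their own list. The median score was 117 on contigs and 65.8 on chromosomes 1 to 19 and X in AH2 NBS1. It was 126 against 65.9 in R2K.A NBS1, and 114 against 59.6 in AH2 input. On contigs 57.5% (51.8 to 63.1%) of AH2 NBS1 intervals, 60.2% (53.7 to 66.3%) of R2K.A NBS1 intervals and 55.9% (50.6 to 61.0%) of AH2 input intervals reached a score of 100. Each was above the value of the same list on placed chromosomes. None of the 7 intervals of the subtracted list reached 100, and only 4.03% of that whole list did.

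Intervals were found on 9 contigs, and chrUn_random held most of them. It had 275 of the 292 AH2 NBS1 intervals (94.2%), 214 of the 226 R2K.A NBS1 intervals (94.7%) and 293 of the 347 AH2 input intervals (84.4%). The 8 contigs assigned to a chromosome held the other 17, 12 and 54 intervals. Of the 54 input intervals 23 were on chr8_random and 18 on chr1_random. AH2 NBS1 had 8 on chr8_random and 1 on chr1_random, and R2K.A NBS1 had 6 and 1. On chr9_random the counts were 6, 3 and 2, in the order input, AH2 NBS1, R2K.A NBS1. Input alone had intervals on chr13_random, 3 in number, with scores from 57.2 to 68.5.

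**Figure D1:**
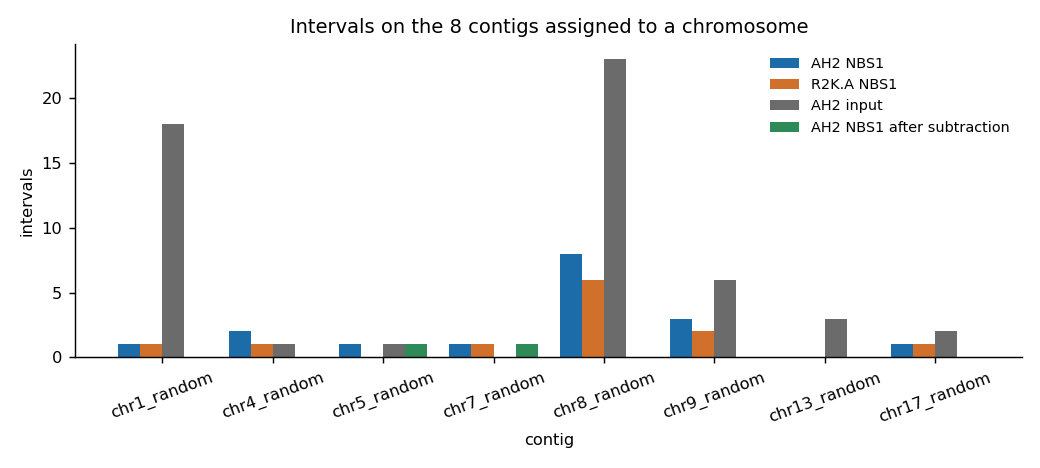
Number of intervals (y axis) on each of the 8 contigs assigned to a chromosome (x axis), with 1 bar per list. Input reaches 18 on chr1_random and 23 on chr8_random, where no other list exceeds 8, and the subtracted list has 1 interval each on chr5_random and chr7_random.

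A few of the small contigs carried 1 strong region that all called lists shared. On chr1_random it lay at 272474 to 272948 in AH2 NBS1 (score 1824.48), at 272367 to 272958 in R2K.A NBS1 (1672.91) and at 272476 to 272947 in AH2 input (2386.85), the second highest contig score of each list. No other interval of either NBS1 list was on that contig, and the other 17 input intervals scored at most 128.45. On chr4_random AH2 NBS1 had 143041 to 143352 (579.77) and 143376 to 143427 (63.54), where R2K.A NBS1 had a single interval at 143038 to 143437 (567.82) and input one at 142997 to 143427 (756.74). On chr9_random R2K.A NBS1 had an interval of 1556 bp at 242008 to 243563 (1177.3). Over the same stretch AH2 NBS1 had intervals at 242023 to 243119 (626.91) and 243138 to 243553 (358.8), and input had 3 intervals, of which 242023 to 242605 scored highest (883.42). On chr17_random the shared region began at 22132 in both NBS1 lists, with scores of 275.55 in AH2 NBS1 and 188.99 in R2K.A NBS1, and at 22130 in input (316.8).

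Intervals on chr8_random differed from these. They were often wide, and in both NBS1 lists they scored low beside the strong regions above. Their median score was 75.3 in AH2 NBS1 and 64.1 in R2K.A NBS1, against 65.8 and 65.9 on chromosomes 1 to 19 and X. In R2K.A NBS1, 5 of the 6 were at least 700 bp wide, with scores of 59.3 to 98.0. In AH2 NBS1, 3 of the 8 reached 700 bp, at 396230 to 397146, 675532 to 677443 and 817436 to 818423, with scores between 74.4 and 76.3. In input, 9 of 23 did, with scores from 57.2 to 279.35. The widest, 4004 bp at 679587 to 683590, scored 215.25. On chrUn_random only 2 of 275, 4 of 214 and 7 of 293 intervals were as wide, in the order AH2 NBS1, R2K.A NBS1, input. The lists also shared less on chr8_random than on chrUn_random. Of the 8 AH2 NBS1 intervals on chr8_random 4 overlapped R2K.A NBS1, against 77.1% on chrUn_random and 32.8% of the whole list. With input 5 overlapped, against 85.1% and 28.9%. Of the 23 input intervals on chr8_random 17 overlapped neither NBS1 list. That compares with 51 of 293 on chrUn_random and 86.0% of the whole input list.

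Along chrUn_random the intervals were unevenly placed. Of the 59 bins of 100 kb up to its last covered base, 5896962, 30 held an interval of AH2 NBS1, R2K.A NBS1 or input and 29 held none. Below 3 Mb there were 17 of the 782 intervals of these 3 lists. Above it, 12 bins with at least 20 intervals each, summed over the lists, held 721. The fullest bin, from 4.7 to 4.8 Mb, had 31 AH2 NBS1, 24 R2K.A NBS1 and 33 input intervals. The next, from 5.8 to 5.9 Mb, had 34, 23 and 29, in the same order. The bin from 3.5 to 3.6 Mb had 26, 21 and 29, that from 3.9 to 4.0 Mb had 26, 19 and 25, and that from 5.1 to 5.2 Mb had 23, 18 and 23. None of these 5 bins held an interval of the subtracted list. Assembly gaps and the share of each bin to which reads can be aligned were not examined here, so an empty bin is not shown to lack signal.

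**Figure D2:**
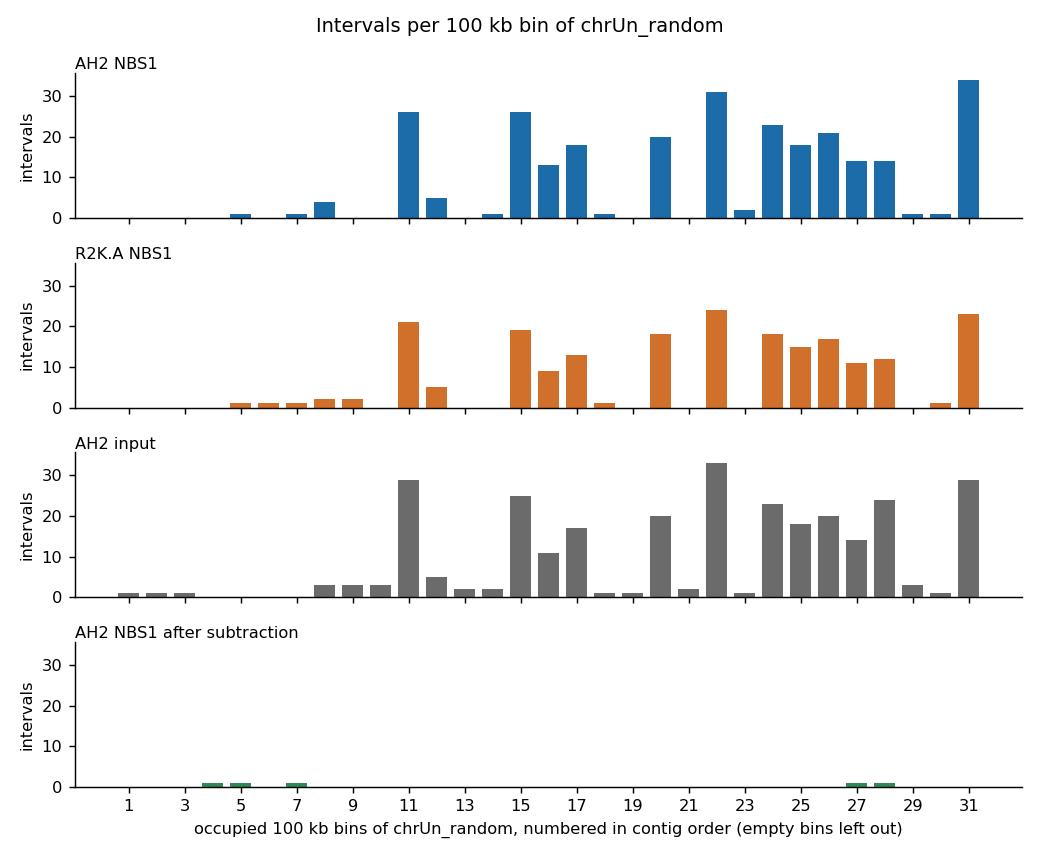
Number of intervals (y axis) in each 100 kb bin of chrUn_random with an interval of any list, numbered in the order along the contig (x axis), with 1 panel per list. The 3 upper panels have the same full bins, up to 34, 24 and 33 intervals, and the subtracted list has at most 1 interval in a bin.

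The NBS1 lists filled the same bins to a like degree, while input also had intervals in many other bins. Over the 58 contig bins with an interval of any of the 3 lists, counts of AH2 NBS1 and R2K.A NBS1 had a Pearson r of 0.993 and a Spearman rho of 0.859. For AH2 NBS1 and input r was 0.974 and rho 0.597, and for R2K.A NBS1 and input 0.977 and 0.545. On chrUn_random alone (30 bins) the 3 pairs were closer to each other. There r was 0.992, 0.976 and 0.981 and rho 0.904, 0.827 and 0.815, in the same order. These are descriptions across bins, which share the libraries, the assembly and its gaps. Of the 58 bins 23 held input intervals only and 23 held all 3 lists. Of the 32 bins with an AH2 NBS1 interval, 27 also had one of R2K.A NBS1 (84.4%, 68.2 to 93.1%) and 28 had one of input (87.5%, 71.9 to 95.03%). Of the 53 bins with an input interval, 28 had one of AH2 NBS1 (52.8%, 39.7 to 65.6%) and 25 one of R2K.A NBS1 (47.2%, 34.4 to 60.3%).

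Within the full bins the intervals were packed into short islands. When intervals of the 3 called lists under 10 kb apart were joined, 14 clusters of at least 10 intervals resulted, all on chrUn_random. They were 1.86 to 51.2 kb long (median 24.5 kb), together 349 kb, and held 710 of the 865 called intervals, 82.1%. They held 254 of 292 AH2 NBS1 intervals (87.0%, 82.6 to 90.4%), 199 of 226 R2K.A NBS1 intervals (88.1%, 83.2 to 91.7%) and 257 of 347 input intervals (74.1%, 69.2 to 78.4%). All 14 islands held intervals of all 3 lists. Only 1 interval of the subtracted list lay in an island.

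The island with the most intervals lay at 4735936 to 4774577 (38.6 kb), with 31 AH2 NBS1, 24 R2K.A NBS1 and 33 input intervals. Those at 3549453 to 3581862 and 3903014 to 3928496 followed, with 26, 21 and 29 and with 26, 19 and 25 intervals. The shortest, at 4233508 to 4235370, was the most covered: its 5, 3 and 4 intervals took up 29.3%, 44.5% and 38.1% of its bases. The longest, at 5547416 to 5598643, had 14, 12 and 24 intervals. There AH2 NBS1 covered 5.37% of the bases, the lowest of the 14 islands. In the island at 5474044 to 5497274 the lists had nearly equal numbers, 11, 11 and 10, and 90.9% of its AH2 NBS1 intervals overlapped both other lists.

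The highest-scoring contig intervals were largely shared by the 3 called lists. In AH2 NBS1 the top 3 were chrUn_random 5495358 to 5497272 (score 2879.69), the chr1_random region described above, and chrUn_random 5249162 to 5249826 (1566.41). In R2K.A NBS1 they were chrUn_random 5495347 to 5497274 (2701.69), the chr1_random region, and chrUn_random 3632281 to 3632559 (1475.58). In input they were chrUn_random 5495314 to 5497263 (2935.44), the chr1_random region, and chrUn_random 3632293 to 3632479 (2045.37). Of the 10 highest in AH2 NBS1, 9 overlapped the 10 highest of R2K.A NBS1 and 8 those of input. The 10 highest of R2K.A NBS1 and of input shared 8. All 10 in each list overlapped some interval of both other lists. None overlapped the subtracted list, in which R2K.A NBS1 is named as subtracted. Such sharing was not particular to the contigs. On placed chromosomes, at scores of 200 and over, AH2 NBS1 overlapped R2K.A NBS1 in 97.8% and input in 87.2%. R2K.A NBS1 overlapped AH2 NBS1 in 100% and input in 95.7% there. Input overlapped AH2 NBS1 in 92.0% and R2K.A NBS1 in 89.4%. The top region was close to the same width in each list, at 1915, 1928 and 1950 bp, in the order AH2 NBS1, R2K.A NBS1, input.

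Most contig intervals overlapped the other lists, by at least 1 base, and more often than their lists did as a whole. Of the 292 AH2 NBS1 intervals 222 overlapped R2K.A NBS1, 76.0% (70.8 to 80.6%), against 32.8% of the whole AH2 NBS1 list. With input, 246 of them overlapped, 84.2% (79.6 to 88.0%), against 28.9%. Of the 226 R2K.A NBS1 intervals 201 overlapped AH2 NBS1, 88.9% (84.2 to 92.4%), against 52.0% of the whole list. With input, 203 overlapped, 89.8% (85.2 to 93.1%), against 38.7%. So AH2 NBS1 overlapped input somewhat more than it overlapped R2K.A NBS1, with 95% intervals that overlap, and R2K.A NBS1 overlapped both to a like degree. With the 113 top-scoring contig intervals of each list the order for AH2 NBS1 turned, to 84.1% with R2K.A NBS1 and 79.6% with input. On chromosomes 1 to 19 and X the NBS1 lists overlapped each other more than they overlapped input. AH2 NBS1 overlapped R2K.A NBS1 in 30.1% (28.9 to 31.4%) and input in 25.6% (24.3 to 26.8%) there, and R2K.A NBS1 overlapped AH2 NBS1 in 49.1% (47.3 to 50.9%) and input in 34.7% (33.0 to 36.5%).

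In the other direction, 237 of the 347 input intervals overlapped AH2 NBS1, 68.3% (63.2 to 73.0%), against 12.5% of the whole input list. With R2K.A NBS1, 217 overlapped, 62.5% (57.3 to 67.5%), against 10.6%. The overlap was mostly that of chrUn_random. There 76.8% (71.6 to 81.3%) of input intervals overlapped AH2 NBS1, and on the other 8 contigs 22.2% (13.2 to 34.9%). In the islands 88.2% (83.6 to 91.6%) of AH2 NBS1 intervals overlapped input, and outside them 57.9% (42.2 to 72.1%), on 38 intervals. The islands were built from the same 3 lists, so this difference is partly set by how they were defined. The lists are dense in the islands: AH2 NBS1 intervals covered 13.9% of island bases, R2K.A NBS1 15.8% and input 16.6%. The part of this density in the overlaps was not tested.

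The overlap was high at low scores as well. For AH2 NBS1 intervals with scores from 50 to under 75, 29 of 71 on contigs overlapped R2K.A NBS1, 40.8% (30.2 to 52.5%), against 10.8% (9.71 to 11.97%) on chromosomes 1 to 19 and X. With input the values were 56.3% (44.8 to 67.3%) and 10.4% (9.32 to 11.5%). For input intervals in the same class, 33.7% (25.3 to 43.2%) on contigs overlapped AH2 NBS1, against 3.26% (2.91 to 3.65%). From 100 to under 200, 91.9% (84.1 to 96.0%) of AH2 NBS1 intervals on contigs overlapped R2K.A NBS1 and 95.3% (88.6 to 98.2%) input, against 61.3% (57.6 to 64.8%) and 46.1% (42.4 to 49.7%). At scores of 200 and over, 82 of 82 and 81 of 82 did so on contigs, and 97.8% and 87.2% on placed chromosomes. Over the 6 ordered pairs of lists and the 3 score classes under 200, the contig value was higher with 95% intervals apart in 18 of 18. At 200 and over this held in 1 of 6, that of AH2 NBS1 with input. Each pair of lists enters in both directions and neighbouring intervals are not independent, so these are descriptions and not 18 separate results. The 95% intervals nearly met for R2K.A NBS1 in AH2 NBS1 from 100 to under 200. There the shares were 97.3% (90.7 to 99.3%) on contigs and 87.0% (83.4 to 90.0%) on placed chromosomes. The score classes were chosen after the lists had been seen.

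**Figure D3:**
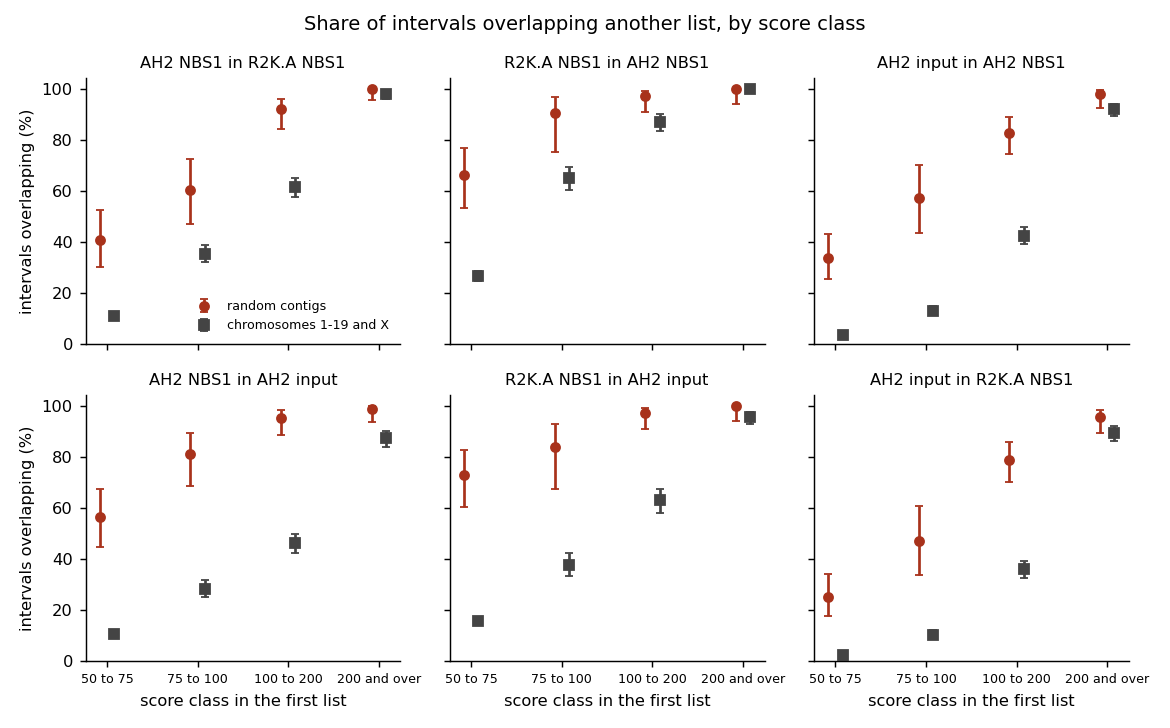
Share of intervals of one list that overlap another list (y axis, %) in 4 classes of the score in the first list (x axis), on the random contigs (circles) and on chromosomes 1 to 19 and X (squares), with 95% Wilson intervals that cover counting error only. Below a score of 200 the contig values lie above the chromosome values in all 6 panels, and at 200 and over both are between 87.2% and 100%.

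Overlapping intervals were also placed alike. Among pairs that overlapped each other and nothing else, the centres of AH2 NBS1 and input intervals were a median of 19 bp apart on contigs (209 pairs) and 17.0 bp on placed chromosomes (1171 pairs). For AH2 NBS1 and R2K.A NBS1 the medians were 23.25 bp (172 pairs) and 19 bp (1391 pairs). Pairs were chosen by overlap, which limits how far apart their centres can lie, and contig distances were not smaller than those on placed chromosomes. Of the 60764 bases in AH2 NBS1 contig intervals, 72.6% were also in R2K.A NBS1 and 79.0% also in input. Of the 114522 contig bases in any of the 3 lists, 38817 were in all 3, 33.9%.

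Contig intervals were wider than the rest of their lists. The median width was 162 bp on contigs (148 to 176 bp) against 117 bp on placed chromosomes in AH2 NBS1, 242 bp (215 to 270 bp) against 143 bp in R2K.A NBS1, and 187 bp (170 to 203 bp) against 133 bp in input. The middle 50% ran from 111 to 222 bp, 171 to 346 bp and 122 to 266 bp. The contig intervals of R2K.A NBS1 were the widest of the 3, and its 226 intervals covered 66.2 kb where the 292 of AH2 NBS1 covered 60.8 kb. Within a score class the contig median was the larger in 11 of 12 combinations of list and class. The exception was input from 75 to under 100, at 155 against 161 bp. In AH2 NBS1 from 100 to under 200 the medians were 166 bp on contigs and 96.0 bp on placed chromosomes.

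Spacing set the contigs apart more than width did. Another interval of the same list lay under 10 kb away for 91.8% (88.1 to 94.4%) of AH2 NBS1 intervals on contigs, 92.0% (87.8 to 94.9%) of R2K.A NBS1 and 87.6% (83.7 to 90.7%) of input. On chromosomes 1 to 19 and X these shares were 11.7%, 8.67% and 14.4%. The median gap to the nearest interval of the same list was 248 bp in AH2 NBS1, 345 bp in R2K.A NBS1 and 393 bp in input on contigs, and 166, 283 and 64.6 kb on placed chromosomes, in the same order. Of the AH2 NBS1 contig intervals 78.8% had a neighbour under 1 kb away. Close spacing was mainly that of chrUn_random: without it the shares under 10 kb were 35.3%, 16.7% and 46.3%, on 17, 12 and 54 intervals. The 7 intervals of the subtracted list had none under 10 kb away, and the median gap among them was 340 kb.

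**Figure D4:**
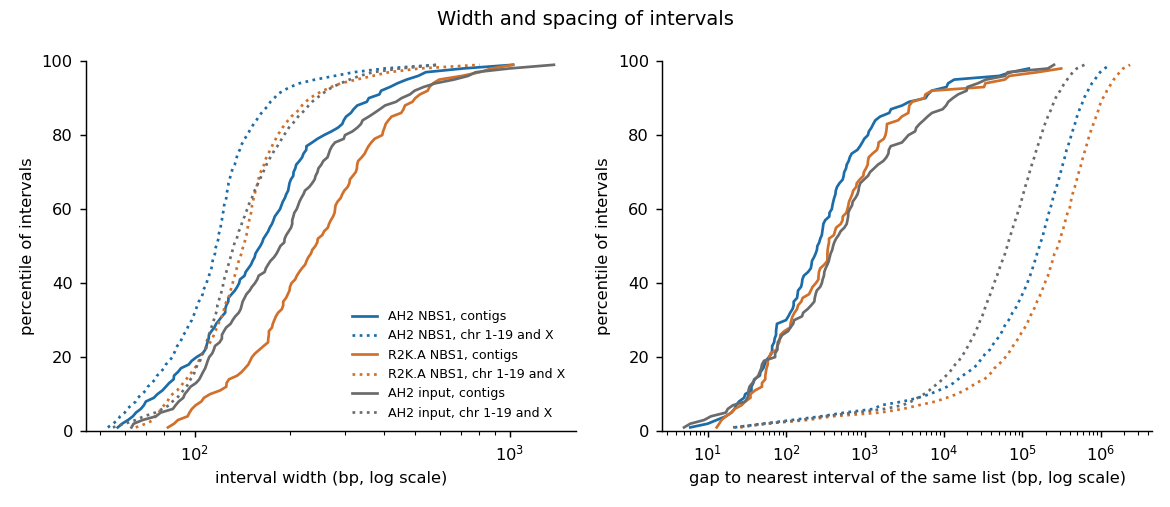
Percentiles (y axis) of interval width (left, bp, log scale) and of the gap to the nearest interval of the same list (right, bp, log scale), for contigs (solid lines) and chromosomes 1 to 19 and X (dotted lines). At the middle percentile the contig lines lie to the right of their own chromosome lines for width, with medians of 162 to 242 bp, and far to the left for the gap, with medians of 248 to 393 bp.

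Merging overlapping intervals of the 3 called lists gave 375 contig regions. All 3 lists had 180 of them, 48.0% (43.0 to 53.1%), with a median merged width of 302 bp. Input alone had 92 (24.5%, 20.5 to 29.1%), AH2 NBS1 alone 32 (8.53%, 6.11 to 11.8%) and R2K.A NBS1 alone 12 (3.20%, 1.84 to 5.51%). AH2 NBS1 and input without R2K.A NBS1 shared 36, R2K.A NBS1 and input without AH2 NBS1 shared 13, and both NBS1 lists without input shared 10. The last class, NBS1 in both lines and no input interval, was thus the smallest. Counted by interval, 14 of 292 AH2 NBS1 contig intervals overlapped R2K.A NBS1 only, 4.79%, against 11.7% of the whole list. Input only was overlapped by 38, 13.0%, against 7.79%. For R2K.A NBS1 the shares were 4.87% against 18.9% with AH2 NBS1 only, and 5.75% against 5.67% with input only. In 37 of the 180 common regions some list had more than 1 interval: AH2 NBS1 in 31, input in 21 and R2K.A NBS1 in 10. A region that R2K.A NBS1 spanned with 1 interval was thus at times split in AH2 NBS1, and counts of intervals exceed counts of separate places.

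**Figure D5:**
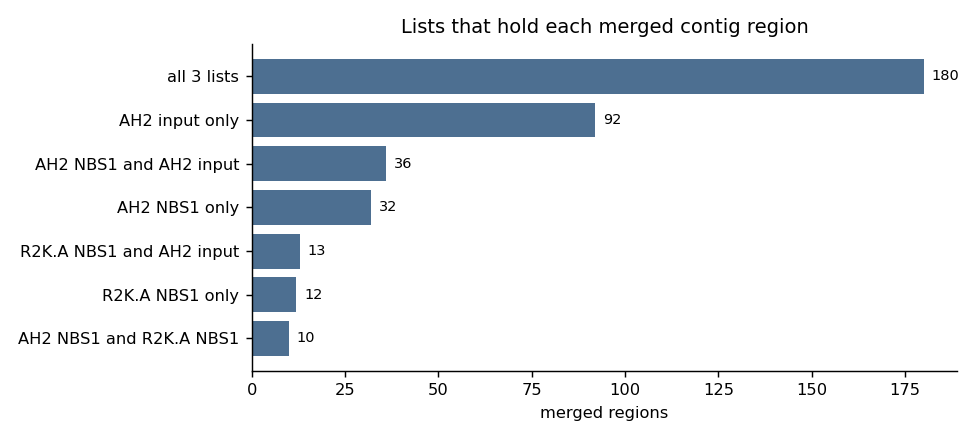
Number of merged contig regions (x axis) by the lists that hold them (y axis), over AH2 NBS1, R2K.A NBS1 and AH2 input. Regions of all 3 lists are the most frequent, 180 of 375, and those of both NBS1 lists without input the least frequent, 10.

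Counted by interval, 208 of the 292 AH2 NBS1 contig intervals overlapped both other called lists, 71.2% (65.8 to 76.1%), against 21.1% of the whole list. The 32 that overlapped neither made up 10.96% (7.87 to 15.1%), against 59.4% of the whole list. In R2K.A NBS1 190 of 226 overlapped both, 84.1% (78.7 to 88.3%), against 33.1%, and 12 overlapped neither, 5.31% (3.06 to 9.05%), against 42.4%. In input 199 of 347 overlapped both, 57.3% (52.1 to 62.4%), against 9.08%, and 92 overlapped neither, 26.5% (22.1 to 31.4%), against 86.0%.

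The 32 intervals found in AH2 NBS1 alone were low and narrow. Their scores ran from 50.3 to 142 (median 60.7) and their widths from 55 to 275 bp (median 113.5 bp). This was not particular to the contigs. On placed chromosomes the 3014 AH2 NBS1 intervals that overlapped neither other called list had a median score of 58.3. Their median width was 116 bp. Of the 32 contig intervals, 21 lay in the islands, 8 elsewhere on chrUn_random and 3 on other contigs. Of the same 32, 21 were within 1 kb of an R2K.A NBS1 or input interval. Only 2 scored at least 100, both on chrUn_random and in islands: 3921043 to 3921120 (142.2, 78 bp) and 5578389 to 5578447 (100.6, 59 bp). They are named because of these scores, after the values were seen. The 12 intervals found in R2K.A NBS1 alone scored 50.1 to 83.5, and 4 of them were in islands. Of the 92 found in input alone 41 were on the contigs assigned to a chromosome, mainly chr1_random (17) and chr8_random (17).

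The subtracted list held few of the AH2 NBS1 intervals of these contigs, though chrY_random, left out here, had 38 AH2 NBS1 and 43 subtracted-list intervals. Of the 292 AH2 NBS1 contig intervals 5 were identical to an interval of the subtracted list, 1.71% (0.734 to 3.95%), against 17.7% of the whole AH2 NBS1 list, and 287 were not. Of the 292, 260 overlapped R2K.A NBS1 or input, the lists named as subtracted. Of these 260, 3 were identical to one of the subtracted list, 1.15% (0.393 to 3.34%). On chromosomes 1 to 19 and X that share was 4.50% (3.64 to 5.55%). The part of this overlap in the low contig share was not tested. Of the 32 contig intervals that overlapped neither R2K.A NBS1 nor input, 2 were identical to one of the subtracted list, 6.25% (1.73 to 20.1%). On chromosomes 1 to 19 and X the share was 27.2% (25.6 to 28.8%). With scores under 75 the values were 2 of 24, 8.33% (2.32 to 25.8%), and 27.2% (25.5 to 29.0%). The last 2 intervals overlap slightly, so at low scores the contig and chromosome values were not separated by counting error. How the subtraction was done is not given in the sources used here.

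The 7 intervals of the subtracted list were 60 to 177 bp wide and scored 50.1 to 98.2. Of these 5 (71.4%, 35.9 to 91.8%) were identical to AH2 NBS1 intervals, against 61.9% of the whole subtracted list, which was also the share that overlapped one. R2K.A NBS1 overlapped 1 of the 7 (14.3%, 2.57 to 51.3%), against 0.672% of the whole list, and input overlapped 2 (28.6%, 8.22 to 64.1%), against 6.18%. On so few intervals these shares are loosely bounded.

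Of the 7 intervals, 2 overlapped no R2K.A NBS1 or input interval and were identical to AH2 NBS1 intervals. They lay on chr5_random at 18452 to 18572 (score 52.0 in the subtracted list and 51.29 in the AH2 NBS1 list) and on chr7_random at 60170 to 60334 (60.64, and 57.01). The nearest R2K.A NBS1 interval to that on chr7_random was 12.6 kb away, and the nearest input interval to that on chr5_random 45.6 kb away. R2K.A NBS1 had no interval on chr5_random, and input none on chr7_random. The other 3 that were identical to AH2 NBS1 intervals were on chrUn_random, and each overlapped R2K.A NBS1 or input. That at 2501103 to 2501279 scored 62.01 in the subtracted list and 208.0 in the AH2 NBS1 list, and overlapped an R2K.A NBS1 interval that scored 55.22. That at 5402243 to 5402302, the highest of the 7 (98.2, and 97.75 in AH2 NBS1), overlapped the input interval at 5402245 to 5402308 (85.71). That at 5598513 to 5598643 (79.63, and 65.04) overlapped the input interval at 5598525 to 5598631 (62.16) and was the only one in an island. The remaining 2 had no AH2 NBS1 interval under them: 1361843 to 1361954 (52.4), with the nearest interval of any called list 105 kb away, and 1701602 to 1701695 (50.14), 430 bp from an AH2 NBS1 interval at 1702126 to 1702207.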

How the data were processed

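Peak intervals of 3 ChIP-seq libraries were analysed, 1 per group, in 4 lists. The submitters' processing notes name the aligner Bowtie, the peak caller MACS 1.4.2 and the build mm9. How Bowtie treated reads that align to several places, and which control each call had, is not given in the sources used here. Both could change what is called on repeated sequence. Each interval has a deposited score, whose meaning the headers do not give. Each called list is of 1 library per the file headers. The subtracted list draws on AH2 NBS1 and at least R2K.A NBS1.

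Overlaps and counts were computed with pandas 2.3.3, numpy 2.4.6 and scipy 1.17.1 under Python 3.11.15, and figures drawn with matplotlib 3.10.9. An overlap was at least 1 base. Bins of 100 kb were counted from the first base of a contig, by interval midpoint. Islands joined intervals under 10 kb apart and were kept from 10 intervals. Starts are 1-based in mm9. Intervals of medians are order-statistic intervals at 95%. Joins were tested on simulated data: of 300 intervals 200 had a planted overlap, and 200 were found. Coordinates were not converted to another build.

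The members, bins and comparisons were chosen with earlier results of these data known. Named regions were all contigs by their counts, the 5 fullest bins, the 3 highest-scoring contig intervals per called list and all contig intervals of the subtracted list. Islands, score classes, the 700 bp width and the details of other intervals were chosen after seeing the lists. Alternatives were other overlap, score, bin, spacing and contig choices.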

Additional observations from a re-analysis of the deposited data

How the results depend on the processing

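No paired analysis was possible because every group consists of 1 library. For the same reason no library was dropped. The 32 results were computed under other settings 115 times in all. Of these values 45 stayed within the 95% interval of the reported share or median (or 1.5 times a count) and 70 did not. The cause was not tested except where the alternative itself changes the number of intervals. In what follows, values are given in the order AH2 NBS1, R2K.A NBS1, AH2 input where they are 3. For overlaps the order is AH2 NBS1 in R2K.A NBS1, AH2 NBS1 in input, R2K.A NBS1 in AH2 NBS1, R2K.A NBS1 in input, input in AH2 NBS1 and input in R2K.A NBS1.

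The contig shares of the lists (5.61%, 7.08%, 2.92% and 0.470% after subtraction) were 12.5%, 15.04%, 13.1% and 0% at scores of at least 100, the last on 60 intervals, and 2.73%, 4.12% and 1.62% after merging neighbours less than 1 kb apart, a step that lowers counts where intervals are dense. With chrX_random and chrY_random they were 6.42% for AH2 NBS1, 3.87% for input and 3.36% for the subtracted list, in which 43 intervals lay on chrY_random.

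The overlaps (76.0%, 84.2%, 88.9%, 89.8%, 68.3% and 62.5%) were 90.4%, 94.9%, 92.9%, 94.7%, 77.2% and 75.5% within 1 kb. On the contigs other than chrUn_random they were 58.8%, 70.6%, 66.7%, 50.0%, 22.2% and 14.8%, on 17, 12 and 54 intervals, and with chrX_random and chrY_random 68.3%, 74.3%, 84.1%, 82.5%, 51.8% and 47.1%. Among the 113 top-scoring of each list, all but that of AH2 NBS1 in input moved, to 84.1%, 80.5%, 80.5%, 77.0% and 80.5%, and AH2 NBS1 in input, at 79.6%, was then below AH2 NBS1 in R2K.A NBS1. With at least 50% of an interval covered, R2K.A NBS1 in AH2 NBS1 was 73.5%, R2K.A NBS1 in input 81.0% and input in AH2 NBS1 63.1%. With both lists of a pair cut at scores of at least 100, R2K.A NBS1 in input was 93.4%, input in AH2 NBS1 73.7% and input in R2K.A NBS1 69.1%. Against the uncut AH2 NBS1 list, input overlapped in 82.7% at scores from 100 to under 200 and in 97.8% at 200 and over. Against the uncut R2K.A NBS1 list these values were 78.8% and 95.6%.

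The shares with a neighbour under 10 kb away (91.8%, 92.0%, 87.6%) were 97.3%, 96.5% and 97.4% under 100 kb, 78.8%, 69.9% and 68.0% under 1 kb, 95.2%, 96.3% and 93.8% at scores of at least 100, and 35.3%, 16.7% and 46.3% without chrUn_random.  Median widths without chrUn_random were 275, 693 and 247 bp, and at scores of at least 100 they were 189 bp in AH2 NBS1 and 213 bp in input.

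The 5 fullest bins held 47.9%, 46.5% and 40.3% of contig intervals, 40.1%, 39.8% and 33.1% with 50 kb bins, 54.5%, 54.4% and 49.6% with 200 kb bins, and at scores of at least 100 55.1% in R2K.A NBS1 and 47.4% in input. With every list cut at that score, all 17 R2K.A NBS1 bins (100%) also held AH2 NBS1 and input (100%). The bins with input then held AH2 NBS1 in 69.2% and R2K.A NBS1 in 65.4%. The islands held 85.0% of called intervals when joined under 20 kb and 88.2% at scores of at least 100, both chosen after seeing the data. Bins shifted by 50 kb and islands joined under 5 kb moved no value. Without read counts, how depth limits the lists is unknown.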

Other observations

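No single class of 10 bp held many of the steps between neighbouring intervals on chrUn_random. Start to start, the median step was 864 bp in AH2 NBS1, 1353 bp in R2K.A NBS1 and 1008 bp in input. The most frequent class of 10 bp held 6 of 274 steps in AH2 NBS1 (2.19%), 6 of 213 in R2K.A NBS1 (2.82%) and 7 of 292 in input (2.40%). Starts of overlapping contig intervals differed between lists by medians of 13 to 25 bp, more than the 10 bp of a class. A shared distance could thus be spread over several classes and be missed. Only steps between adjacent intervals were counted.

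On chrY_random, which the choice of contigs leaves out, AH2 NBS1 had 38 intervals, R2K.A NBS1 17, input 110 and the subtracted list 43. The contigs described above had 292, 226, 347 and 7 in the same order. Whether the 43 are the same places as the 38 was not examined.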
